A study of Homo sapiens with 12 samples.

Results

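The report describes 69 small nucleolar RNA (snoRNA) genes of the deposited count table, chosen because their symbol marks them as a C/D (SNORD) or H/ACA (SNORA) snoRNA and because they held at least 50 counts summed over the 12 libraries. They were 69 of 57353 genes in the table and 69 of its 428 SNORD and SNORA entries, of which 126 were at 0 in every library. There were 42 C/D members, out of 281 SNORD entries, and 27 H/ACA members, out of 147 SNORA entries. The members were chosen by their summed count, so abundance is given as a description. SNORA72 had 51 counts, and SNORA16A and SNORD73A had 50 each, just inside the limit, whereas SNORA63 and SNORD15A with 49 and SNORD51 with 47 fell just outside it.

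RNA came from HepG2, a human hepatocellular carcinoma cell line labelled wild type, treated for 12 h with 10 µM sorafenib, a kinase inhibitor used against liver cancer, or with its vehicle DMSO. Lysates of detergent-opened cells were cleared by centrifugation, with cycloheximide present to hold ribosomes on mRNA, and separated on sucrose gradients. The polysome fraction pooled the polysome peaks, and the light fraction pooled low-molecular complexes, free ribosomal subunits and single ribosomes. Each of 3 cultures per treatment gave 1 library per fraction, which made 4 groups of 3 libraries (sorafenib polysome, vehicle polysome, sorafenib light and vehicle light). The series calls the libraries ribosome profiling, and no library of unfractionated RNA was analysed here.

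C/D snoRNAs guide ribose methylation of ribosomal RNA with fibrillarin, and H/ACA snoRNAs guide conversion of uridine to pseudouridine with dyskerin. A small number, such as U3, U8, U14 and U17, act in the cleavage of the rRNA precursor. Most human snoRNAs lie in introns and are released from the spliced intron of a host gene, whereas U3 has its own promoter. Mature snoRNAs reside in the nucleolus, and many hosts encode ribosomal proteins or are non-coding transcripts with pyrimidine-rich starts.

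SNORD58B, a guide for large-subunit rRNA and the third best counted member, is shown because its whole sequence could be read from the RefSeq tables used (GRCh38.p14, chr18:49491664-49491729, minus strand, within RPL17-C18orf32). Capitals mark TGATG at positions 7 to 11 and CTGA at positions 58 to 61 of its 66 bases, counted from the 5′ end, which match the C and D boxes that define the class. The median RefSeq gene length was 78 bases for C/D members and 133 bases for H/ACA members.
SNORD58B: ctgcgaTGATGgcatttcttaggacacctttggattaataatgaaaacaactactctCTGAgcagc

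The starts of 9 host genes of the best counted members are shown because hosts and snoRNAs are compared below. Each sequence runs from 20 bases before to 20 bases after the RefSeq start (GRCh38.p14), and capitals mark the letters CTTT on the strand of the gene. They lie at chr17:16438967-16439006 (SNHG29, plus strand, host of SNORD49B), chr20:2652612-2652651 (NOP56, plus, host of SNORD86), chr19:47745526-47745565 (NOP53, plus, host of SNORD23), chr11:93741476-93741515 (TAF1D, minus, host of SNORA18 and SNORA8), chr13:45341164-45341203 (TPT1, minus, host of SNORA31) and chr16:2155339-2155378 (SNHG19, minus, host of SNORD60). The others lie at chr11:62672248-62672287 (LBHD1, minus, which spans SNORA57, as CSKMT also does), chr1:28505923-28505962 (SNHG3, plus, host of SNORA73A and SNORA73B) and chr17:7572805-7572844 (EIF4A1, plus, host of SNORA67). The letters CTTT stood in 5 of these 9 windows.
SNHG29: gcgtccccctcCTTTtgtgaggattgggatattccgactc
NOP56: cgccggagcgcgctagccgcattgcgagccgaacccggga
NOP53: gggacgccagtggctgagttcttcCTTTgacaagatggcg
TAF1D: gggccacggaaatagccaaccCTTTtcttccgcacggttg
TPT1: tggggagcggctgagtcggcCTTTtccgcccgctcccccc
SNHG19: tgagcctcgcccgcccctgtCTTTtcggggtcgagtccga
LBHD1: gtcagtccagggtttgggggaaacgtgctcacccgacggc
SNHG3: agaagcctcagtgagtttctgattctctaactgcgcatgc
EIF4A1: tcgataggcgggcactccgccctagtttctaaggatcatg
The letters CTTT, which overlap no other motif searched, occurred on the gene's own strand in 27 of 41 start windows of 33 host genes (65.9%), against 16.0% of all 35116 windows of the same length, and on either strand in 65.9% and 26.7%. This is a count of letters, and no test was made on it.

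By host, 25 members lay within a ribosomal protein gene, 21 within a non-coding host such as SNHG29 or SNHG25, 18 within another protein-coding gene and 5 within no gene of the table. The 64 members with a host shared 44 host genes. A host here is a gene whose RefSeq span holds the snoRNA, without a check of strand, and the best counted gene where several did. SNORA57 lay within both LBHD1 and CSKMT, and LBHD1 was taken by this rule. SNORD118 is counted under TMEM107 by the same rule, although it was listed as independently transcribed. Counts were low: the members held 20921 counts in all, 26 of them had fewer than 100 counts and 11 had more than 500. SNORD49B (2590 counts), SNORD104 (2409) and SNORD58B (2393) together held 35.3% of the members' counts, and the members held 88.8% of all SNORD and SNORA counts. The vehicle light libraries supplied 69.5% of the members' counts.

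Libraries totalled 511065 to 13336689 counts, with 2060384 and 511065 in sorafenib light libraries 1 and 2 and 4769383 or more in each of the others. These 2 shallow libraries stood apart in other ways: olfactory receptor genes, which liver cells are not known to use, took 117 and 479 CPM of the library total there, against 20.8 in sorafenib light library 3 and 5.44 to 27.0 in the libraries of the other groups. Library 2 detected 28 of the 69 members, library 1 detected 53 and library 3 detected 61, against 67 to 69 in the vehicle light libraries. Summed over 9 genes, hepatocyte markers were higher with sorafenib, at 30867 to 37448 CPM in sorafenib polysomes against 7592 to 14956 in vehicle polysomes. In the light fraction they summed to 27425 to 28918 CPM with sorafenib against 4697 to 9950 with vehicle. By the fit described below, 6 of the 9 rose and 1 fell in polysomes, where 20.9% of all genes rose and 28.8% fell. In the light fraction 5 rose and 1 fell, where 11.7% of all genes rose and 17.7% fell. The part of these markers in the results below was not tested. Of the leukocyte markers nearly all counts were LYZ, and the fibroblast, endothelial and neuronal lists each stayed at or below 1.89 CPM except in sorafenib light libraries, where they reached 21.5, 21.5 and 15.7.

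As shares of each library, C/D members took 65.0, 37.5 and 50.3 CPM of the library total in the sorafenib polysome libraries, against 58.4, 52.8 and 62.8 in the vehicle polysome libraries. In the light fraction they took 239, 382 and 161 CPM with sorafenib, against 441, 327 and 244 with vehicle. Both light groups lay above both polysome groups, and within each fraction the treatments overlapped. H/ACA members took 22.2, 9.75 and 17.7 CPM in the sorafenib polysome libraries, against 39.1, 20.5 and 14.8 in the vehicle polysome libraries. In the light fraction they took 79.1, 135 and 68.1 CPM with sorafenib, against 207, 128 and 120 with vehicle. The ratio of H/ACA to C/D counts averaged 0.318 ± 0.0504 in sorafenib polysomes, 0.432 ± 0.220 in vehicle polysomes, 0.370 ± 0.0480 in the sorafenib light fraction and 0.451 ± 0.0533 in the vehicle light fraction (SD, n = 3 each). Between the treatments the ratios overlapped in each fraction, at 0.260 to 0.352 with sorafenib and 0.236 to 0.670 with vehicle in polysomes, and 0.331 to 0.423 with sorafenib and 0.391 to 0.492 with vehicle in the light fraction. The sorafenib polysome ratio was 0.426 without SNORD49B and SNORA57, the most abundant member of each class.

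**Figure D1:**
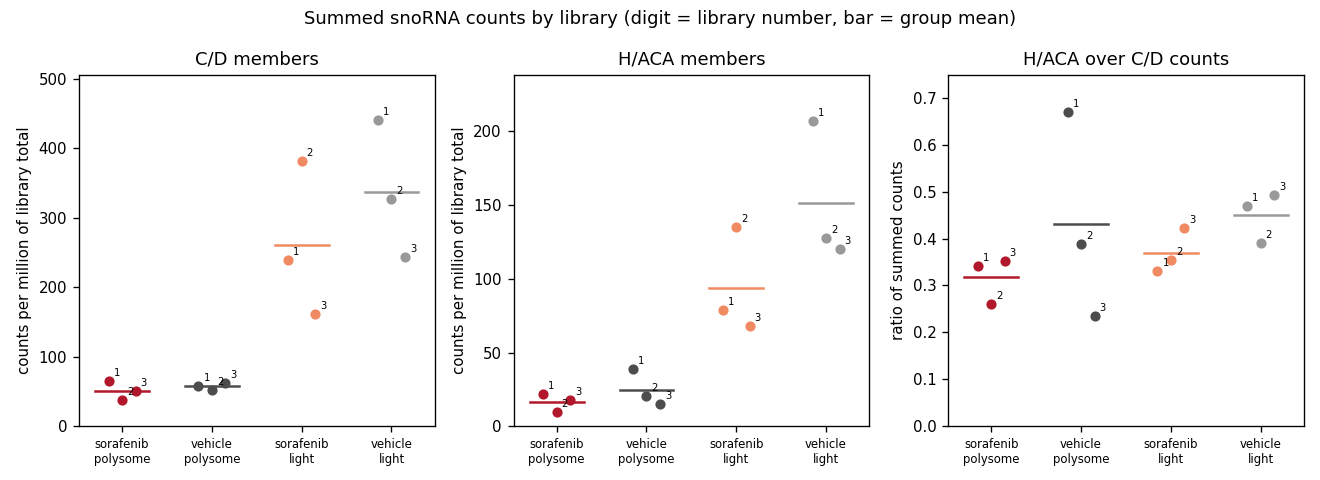
Summed counts of the 42 C/D members (left) and the 27 H/ACA members (middle), in CPM of the library total, and the ratio of H/ACA to C/D counts (right), for each library (points, with the library number) and group mean (bars). The light-fraction libraries lie above the polysome libraries in both classes, from 161 against at most 65.0 CPM for C/D members.

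Below, levels are CPM after trimmed mean of M-values (TMM) scaling, fold changes are on the log2 scale ± SE from edgeR's quasi-likelihood fit of all 12 libraries (n = 3 per group), and a change is called at a Benjamini-Hochberg adjusted p under 0.05 over 14955 genes tested. Of the 69 members, 58 passed the filter on low counts (33 C/D and 25 H/ACA), 26 of them only through the vehicle light libraries, so the counts below cover members that were measurable there and not the 69 as a whole. The other 11 were SNORD14A, SNORD14B, SNORD5, SNORD12B, SNORD55, SNORD58C, SNORD73A, SNORD100, SNORD3B-1, SNORA16A and SNORA78. Because each library is scaled to its own counts, a difference is relative to the other genes. In bulk RNA, fewer cells and less RNA per cell cannot be told apart.

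The first comparison set the polysome against the light fraction in vehicle cells. SnoRNAs were far lower among polysome RNA than among light-fraction RNA: 53 of 58 tested members were lower and 0 higher, where 17.8% of all genes were lower and 18.3% higher. The median member change was -3.61, against -0.06 over all genes. Of the C/D members 30 of 33 were lower (median -3.72), and of the H/ACA members 23 of 25 (median -3.45); the difference between the classes was not tested. Among 22 snoRNAs that reach 50 counts in the sorafenib libraries alone, which this comparison does not use, 21 were lower in a fit with a looser filter, a summed count of at least 10. In that fit 10.4% of all genes were lower and 12.2% higher. With library totals in place of TMM, 89.3% of all called genes were higher in polysomes, against 50.8% with TMM, and 46 members were still lower and 0 higher.

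SNORD49B, a guide for large-subunit rRNA, had 2.93, 4.78 and 10.8 CPM in the vehicle polysome libraries, against 107, 80.5 and 72.0 CPM in the vehicle light libraries. SNORD104, another large-subunit guide, had 4.85, 3.54 and 1.35 CPM in vehicle polysomes, against 180, 94.3 and 37.6 CPM in the vehicle light fraction. SNORA57, the best counted H/ACA member, had 1.85, 3.72 and 1.01 CPM in vehicle polysomes, against 88.5, 43.1 and 33.0 CPM in the vehicle light fraction. In each of these 3 the fractions were separated by a wide gap, and the changes were -3.79 ± 0.45, -5.00 ± 0.57 and -4.77 ± 0.45 (adjusted p of 4.34e-06, 2.85e-06 and 3.71e-07, edgeR). Larger falls were those of SNORD4A, a small-subunit guide in RPL23A (-5.89 ± 0.50), and SNORD23, in NOP53 (-5.61 ± 0.37). SNORD4A had 0.616, 0.177 and 0.169 CPM in vehicle polysomes, against 27.8, 23.2 and 14.1 CPM in the vehicle light fraction. SNORD23 had 0.616, 1.06 and 0.423 CPM in vehicle polysomes, against 28.0, 30.0 and 38.0 CPM in the vehicle light fraction. SNORD96A had 1 count over the vehicle polysome libraries against 70 over the vehicle light libraries, a ratio of 0.00906 after scaling (95% exact interval 0.000226 to 0.0521, for counting error only).

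At the other end of the range, SNORD58B stood out among the well-counted members for its small difference (-1.88 ± 0.31). It had 13.9, 17.0 and 20.5 CPM in vehicle polysomes, against 61.4, 74.5 and 53.7 CPM in the vehicle light fraction, and the libraries of the fractions did not overlap. The 5 tested members that were not called were SNORD118, SNORD38B, SNORD99, SNORA25 and SNORA33, of which those other than SNORD118 were named after their values were seen. SNORD118 is the U8 snoRNA, which acts in maturation of large-subunit rRNA, and it had 1.08, 0.532 and 2.62 CPM in vehicle polysomes, against 2.55, 1.71 and 2.07 CPM in the vehicle light fraction (-0.50 ± 0.57, adjusted p = 0.53, edgeR).

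**Figure D2:**
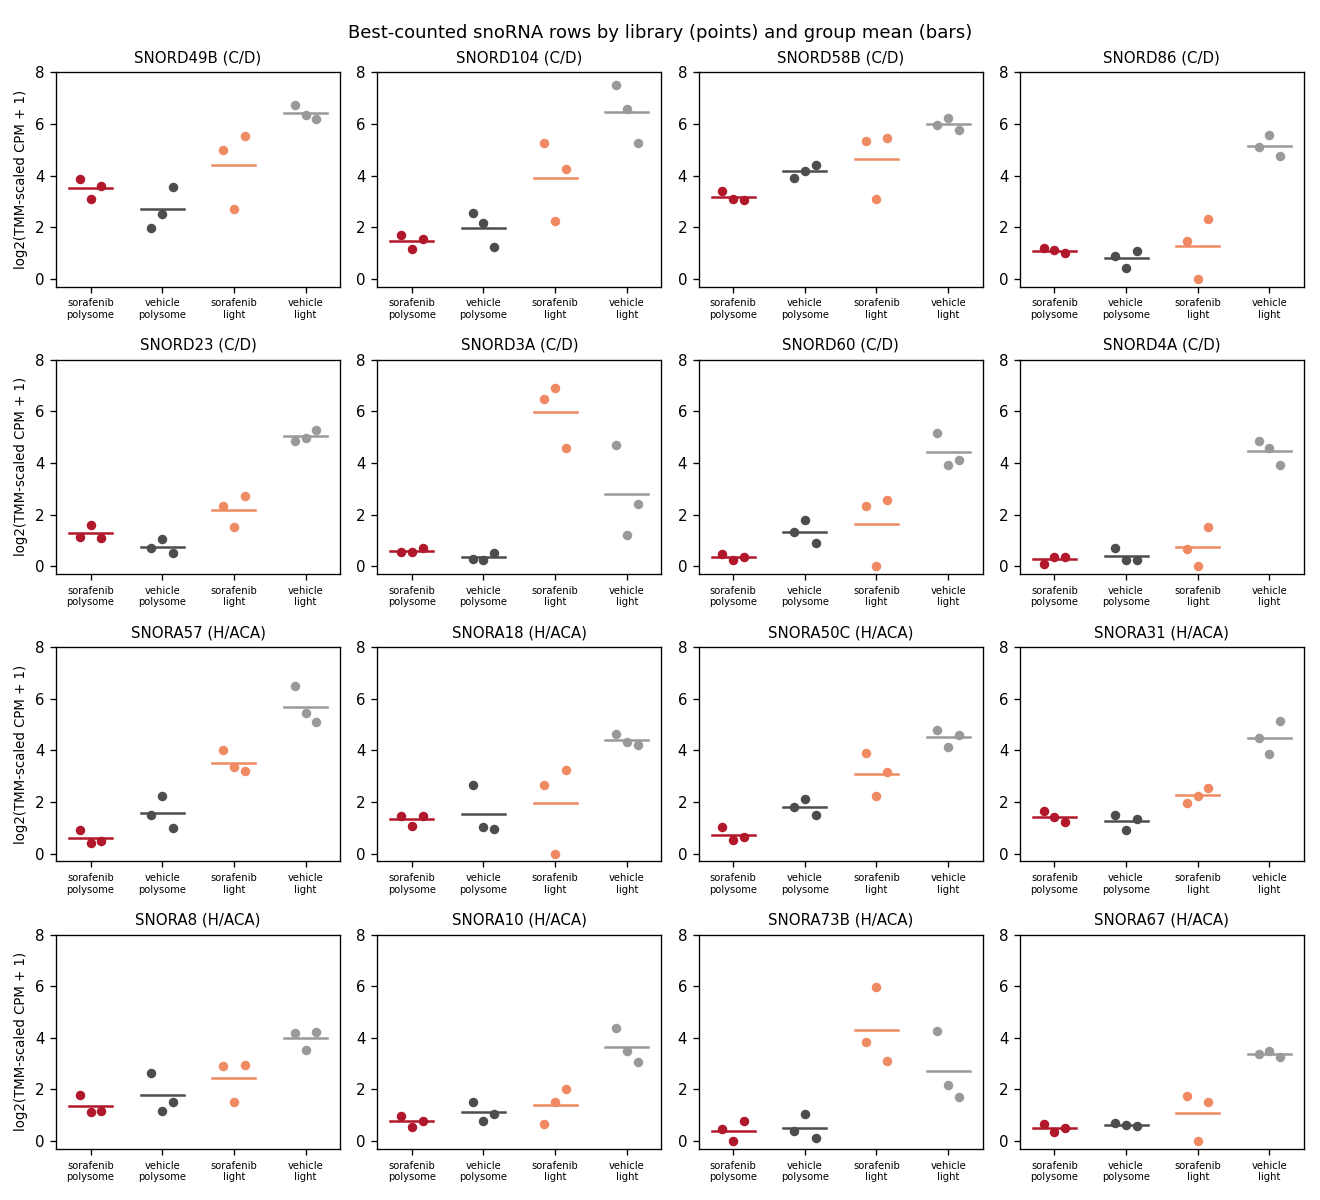
Levels of the 8 best counted C/D members (upper 2 lines of panels) and the 8 best counted H/ACA members (lower 2), as log2 of TMM-scaled CPM plus 1, for each library (points) and group mean (bars). The vehicle light group has the highest mean in each panel except those of SNORD3A and SNORA73B, where the sorafenib light group is highest.

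In sorafenib-treated cells the polysome fraction also held less of the snoRNAs than the light fraction, with 29 of 58 tested members lower and 0 higher, where 12.4% of all genes were lower and 13.4% higher. The median was -2.24, against -0.0037 over all genes, with 17 of 33 C/D and 12 of 25 H/ACA members lower. The largest falls were in the 6 tested members of at least 200 bases, a cut chosen after values were seen, among them the U3 and U17 snoRNAs of rRNA processing. SNORD17, also of the 6, ranged over -5.45 to -2.03 leaving out single libraries. Without both shallow sorafenib light libraries it was at -1.52 and not called. SNORD3A, the main U3 copy, had 0.453, 0.458 and 0.635 CPM in sorafenib polysomes, against 89.2, 118 and 22.7 CPM in the sorafenib light fraction, a change of -7.08 ± 0.85 (adjusted p = 2.1e-05, edgeR). SNORD3C had 2 and SNORD3D 3 counts over the sorafenib polysome libraries, against 51 and 53 over the sorafenib light libraries, ratios of 0.00570 (95% interval 0.000672 to 0.0217) and 0.00823 (0.00164 to 0.0254). Without the sorafenib light libraries, which held 53 of its 86 counts, SNORD3D would not reach 50 counts. SNORA73A and SNORA73B, the U17 copies, were lower by -6.28 ± 0.63 and -5.96 ± 1.00. Falls numbered 19 without sorafenib light library 1, 17 without sorafenib light library 3 and 16 with TMM computed within each fraction, which moved the median of all genes to 0.79, that of the members to -1.48 and the share of called genes that were higher to 90.5%, against 51.9%. Among 57 snoRNAs that reach 50 counts in the vehicle libraries alone, 25 were lower and 0 higher in the fit with the looser filter, where 11.8% of all genes were lower and 20.4% higher.

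**Figure D3:**
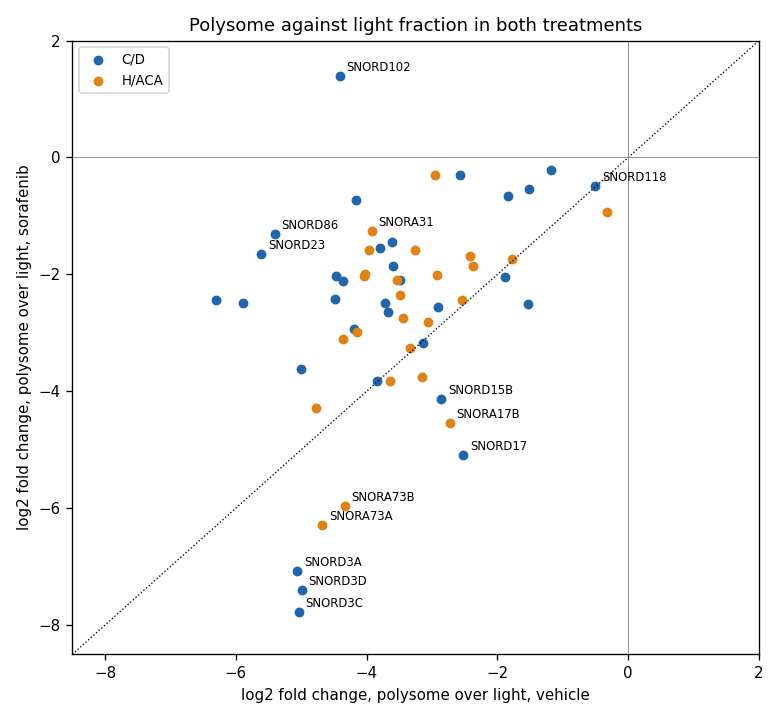
Log2 fold change between the polysome and the light fraction in vehicle cells (horizontal axis) and in sorafenib-treated cells (vertical axis) for the 57 tested members with counts in each group, with the dotted line at equal change; changes of members with 1 to 3 counts in a group depend on the fit. Most points lie above the line, and the U3 and U17 copies and SNORD17 lie below it together with several shorter members. Of all 58 tested members, 14 had a lower value in sorafenib-treated than in vehicle cells.

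The second comparison asked what 12 h of sorafenib did to snoRNAs in the light fraction. More members fell than rose: 26 of 58 tested members fell and 4 rose, where 17.7% of all genes fell and 11.7% rose. The median was -1.71, against -0.12 over all genes, with -1.72 in C/D members (18 of 33 fell and 4 rose) and -1.71 in H/ACA members (8 of 25 fell and 0 rose), a difference that was not tested. Among 20 snoRNAs that reach 50 counts in the polysome libraries alone, 13 fell, 1 rose and 18 had a negative change in the fit with the looser filter, where 11.4% of all genes fell and 8.97% rose. Falls numbered 15 without sorafenib light library 1, 14 without vehicle light library 1, 16 without vehicle light library 2 and 13 without both shallow sorafenib light libraries. With library totals in place of TMM there were 14 falls, 5 rises and a median of -1.31, against a median of 0.31 over all genes, and 73.5% of all called genes rose, against 39.8% with TMM. Rises numbered 2 without sorafenib light library 1 or 2, 1 without vehicle light library 2 and 0 without both shallow libraries.

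Among C/D guides, SNORD86, which lies in NOP56, had 1.76, 0 and 3.97 CPM in the sorafenib light libraries, against 33.7, 47.3 and 25.9 CPM in the vehicle light libraries (-3.64 ± 0.42, adjusted p = 1.92e-05, edgeR). SNORD4A had 0.587, 0 and 1.87 CPM in the sorafenib light fraction, against 27.8, 23.2 and 14.1 CPM in the vehicle light fraction (-4.05 ± 0.54). SNORD23 had 4.11, 1.87 and 5.60 CPM in the sorafenib light fraction, against 28.0, 30.0 and 38.0 CPM in the vehicle light fraction (-2.78 ± 0.36). The groups did not overlap in any of these 3.

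SNORD104 fell to 37.0, 3.74 and 18.2 CPM in the sorafenib light fraction, against 180, 94.3 and 37.6 CPM in the vehicle light fraction (-2.25 ± 0.52, adjusted p = 0.00365, edgeR), with its highest sorafenib and lowest vehicle values nearly touching. SNORD60, a large-subunit guide in SNHG19, had 4.11, 0 and 4.90 CPM in the sorafenib light fraction, against 35.0, 14.4 and 16.4 CPM in the vehicle light fraction (-2.44 ± 0.49). SNORD42A, a small-subunit guide in RPL23A, had 0 counts over the sorafenib light libraries and 101 over the vehicle light libraries, which makes it at least 11.4-fold lower with 3 counts over the group as the floor. SNORD63 had 1 count in the sorafenib light fraction against 58 in the vehicle light fraction, a ratio of 0.0511 (95% interval 0.00127 to 0.296), and its call was lost without sorafenib light library 1. SNORD104, SNORD86, SNORD23, SNORD60 and SNORD4A kept their calls in the 22 alternatives run.

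SNORD49B and SNORD58B, which outrank those guides in counts, fell less. SNORD49B had 30.5, 5.61 and 45.1 CPM in the sorafenib light fraction, against 107, 80.5 and 72.0 CPM in the vehicle light fraction (-1.47 ± 0.42, adjusted p = 0.0141, edgeR). SNORD58B had 39.9, 7.48 and 42.5 CPM in the sorafenib light fraction, against 61.4, 74.5 and 53.7 CPM in the vehicle light fraction (-0.91 ± 0.32, adjusted p = 0.0395, edgeR). In both the shallow library 2 lay lowest and the groups did not overlap. SNORD49B was at -1.34 without sorafenib light library 1 and at -1.22 without vehicle light library 1, neither of them called, and SNORD58B lost its call in 13 of the 22 alternatives, among them 5 single libraries left out (-0.49 to -0.96), library totals (-0.50) and each other TMM setting (-0.80 to -0.83).

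Of the H/ACA guides, SNORA57 had 15.3, 9.35 and 8.17 CPM in the sorafenib light fraction, against 88.5, 43.1 and 33.0 CPM in the vehicle light fraction (-2.35 ± 0.44, adjusted p = 0.000691, edgeR). SNORA31, in TPT1, had 2.94, 3.74 and 4.90 CPM in the sorafenib light fraction, against 21.6, 13.6 and 33.8 CPM in the vehicle light fraction (-2.47 ± 0.42). SNORA67, in EIF4A1, had 2.35, 0 and 1.87 CPM in the sorafenib light fraction, against 9.39, 10.1 and 8.51 CPM in the vehicle light fraction (-2.37 ± 0.49). The groups of these 3 were apart in every library and their calls held in the 22 alternatives. SNORA10 (-2.53 ± 0.56), SNORA18 (-1.71 ± 0.55), SNORA8 (-1.35 ± 0.48) and SNORA50C (-1.25 ± 0.37) also fell. SNORA8 lost its call in 12 of the 22 alternatives, among them 6 single libraries left out (-1.05 to -1.57) and library totals (-0.94), SNORA18 without any of 4 (-1.36 to -1.67) and SNORA50C without any of 3 (-0.97 to -1.07).

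The rises were in the C/D snoRNAs with the longest genes. SNORD3A, the U3 snoRNA that base-pairs with the rRNA precursor for small-subunit cleavage, had 89.2, 118 and 22.7 CPM in the sorafenib light fraction, against 25.3, 1.34 and 4.36 CPM in the vehicle light fraction (2.79 ± 0.67, adjusted p = 0.00426, edgeR). Its raw counts were 152, 63 and 97 in the sorafenib light libraries, against 159, 11 and 21 in the vehicle light libraries. The lowest sorafenib library and the highest vehicle library overlapped. The call held without any single library (2.25 to 4.75), but without both shallow sorafenib light libraries the change was 1.30 and not called. U3 copies made up 30.7%, 36.0% and 10.5% of member counts in the sorafenib light libraries, against 3.80%, 0.90% and 1.12% in the vehicle light libraries.

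Of the other U3 copies, SNORD3C had 13.5, 29.9 and 2.80 CPM in the sorafenib light fraction, against 5.89, 1.58 and 0.415 CPM in the vehicle light fraction (2.26 ± 0.82, adjusted p = 0.0443, edgeR). SNORD3D had 15.3, 29.9 and 2.57 CPM in the sorafenib light fraction, against 3.66, 0.731 and 0 CPM in the vehicle light fraction (3.17 ± 0.94, adjusted p = 0.0157, edgeR). SNORD3B-1 had 0 counts over the sorafenib light libraries and 51 over the vehicle light libraries, at least 5.74-fold lower, and did not pass the filter. The U3 copies are near-identical in sequence, how the counting divided reads among them is not known, and their 3 rises are therefore not separate observations. SNORD3C lost its call without any of 5 single libraries (1.59 to 2.30) and SNORD3D without either of 2 (2.82 and 3.15), and without both shallow libraries they stood at 0.23 and 0.94. DESeq2 called neither, at 2.58 and 3.50.

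SNORD17, an intronic C/D snoRNA in SNX5 named after its values were seen, had 8.22, 150 and 3.97 CPM in the sorafenib light fraction, against 6.68, 6.46 and 7.88 CPM in the vehicle light fraction. Its call (2.62 ± 0.84, adjusted p = 0.0242, edgeR) came from library 2, without which the change was -0.18. SNORA73A and SNORA73B, the U17 snoRNAs needed for rRNA processing, were not called at 1.14 ± 0.47 and 1.47 ± 0.80 (adjusted p of 0.0786 and 0.173, edgeR). SNORA73A had 12.3, 16.8 and 8.64 CPM in the sorafenib light fraction, against 8.59, 3.53 and 3.73 CPM in the vehicle light fraction, and the groups did not overlap. SNORA73B had 13.5, 61.7 and 7.71 CPM in the sorafenib light fraction, against 18.1, 3.53 and 2.28 CPM in the vehicle light fraction.

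With 200 bases as a cut chosen after these values were seen, the 6 tested members of at least 200 bases had positive changes with a median of 2.44, of which 4 rose, 3 of them U3 copies. The member of that length that was not tested, SNORD3B-1 of 217 bases, went the other way, with 0 counts in the sorafenib light fraction against 51 in the vehicle light fraction. Of the 52 shorter members 0 rose, 26 fell and 3 had a positive change, with a median of -1.89. Without sorafenib light library 2 the value of SNORD17 was negative, as given above. Levels of SNORD3C, SNORA73A, SNORD3D, SNORA73B and SNORA17B were the closest to those of SNORD3A, with Pearson correlations of log2 levels of 0.957, 0.951, 0.949, 0.943 and 0.857 over the 12 libraries, which share the fraction difference. Olfactory receptor counts were highest in the same shallow libraries where the U3 copies were highest, and their part in the result was not tested.

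**Figure D4:**
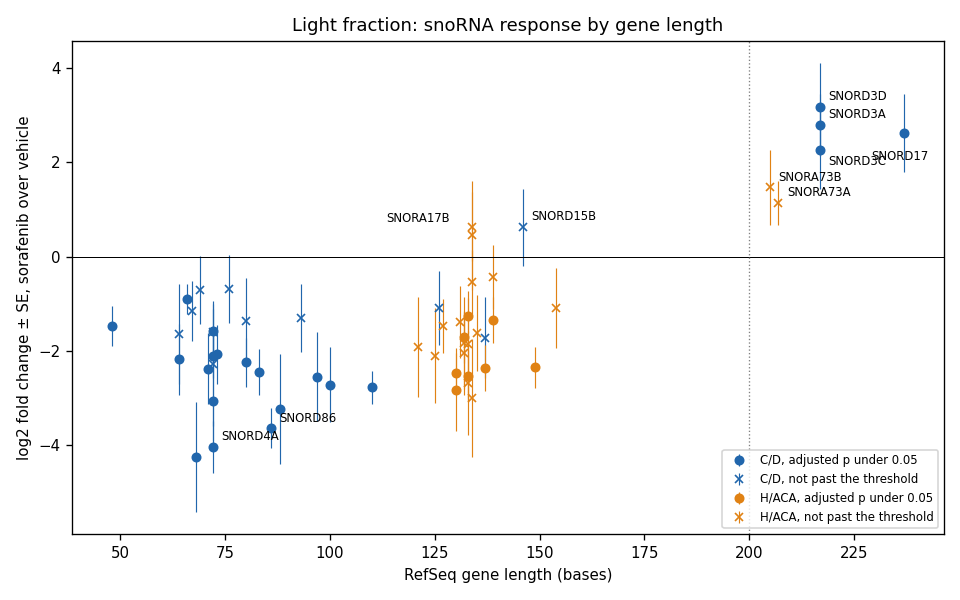
Log2 fold change ± SE in the light fraction, sorafenib over vehicle, against RefSeq gene length in bases for 57 tested members (SNORD42A, with 0 counts in the sorafenib light fraction, and the untested SNORD3B-1 are not drawn); filled points had an adjusted p under 0.05. The 6 members right of the dotted line at 200 bases lie above 0, while 49 of all 58 tested members had a negative change.

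In the polysome fraction few snoRNA changes were called with sorafenib. Of 58 tested members 7 fell and 2 rose, where 28.8% of all genes fell and 20.9% rose, so the share of members called was below that of all genes. Counts were low here, with 252 to 651 over the C/D and 98 to 414 over the H/ACA members in each polysome library. Changes can be missed at such counts, and 40 of the 58 were negative. The median was -0.47, against -0.26 over all genes, with 5 falls and 2 rises among 33 C/D members (median -0.28) and 2 falls and 0 rises among 25 H/ACA members (median -0.79). The direction over all genes depended on the scaling: 42.1% of called genes rose with TMM, 50.7% with library totals and 55.5% with TMM within each fraction. With library totals the median was -0.37, against -0.11 over all genes, with 6 falls and 2 rises. With TMM within each fraction it was -0.29, against -0.03 over all genes, with 5 falls and 3 rises. Falls numbered 4 in the fit with the looser filter, where 10.4% of all genes fell and 18.9% rose. Leaving out single libraries, they numbered 3 without vehicle light library 1 and 4 without any of sorafenib light library 1, sorafenib polysome libraries 2 and 3 and vehicle light libraries 2 and 3. There was 1 rise without sorafenib polysome library 1 or 2 or vehicle polysome library 2 or 3.

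SNORD60 had 0.377, 0.172 and 0.282 CPM in sorafenib polysomes, against 1.54, 2.48 and 0.845 CPM in vehicle polysomes (-2.43 ± 0.60, adjusted p = 0.00273, edgeR). SNORA50C had 1.06, 0.458 and 0.565 CPM in sorafenib polysomes, against 2.54, 3.37 and 1.86 CPM in vehicle polysomes (-1.86 ± 0.42, adjusted p = 0.00137, edgeR). Both groups were apart in every library, and both calls held in the 22 alternatives. SNORA57 had 0.905, 0.344 and 0.424 CPM in sorafenib polysomes, against 1.85, 3.72 and 1.01 CPM in vehicle polysomes (-1.86 ± 0.56), and it was at -1.39 and not called without vehicle polysome library 2. SNORD58B had 9.73, 7.51 and 7.34 CPM in sorafenib polysomes, against 13.9, 17.0 and 20.5 CPM in vehicle polysomes (-1.06 ± 0.31, adjusted p = 0.00893, edgeR), with no overlap. It was not called without any of 4 single libraries (-0.79 to -0.81). All 4 were light-fraction libraries, which are not part of this comparison and enter it only through the shared scaling, filter and fit. SNORD65 (-1.72 ± 0.64), SNORD99 (-2.35 ± 0.83) and SNORD118 (-1.70 ± 0.61) fell too. Each lost its call without several single libraries, 9, 5 and 9 of them, with weakest values of -1.19, -1.74 and -0.92. For each, at least 1 of these was a light-fraction library.

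The 2 rises were SNORD102 and SNORD23. SNORD102, a large-subunit guide in RPL21, had 38 counts over the sorafenib polysome libraries (22, 4 and 12) and 2 over the vehicle polysome libraries (2, 0 and 0), a ratio of 12.9 after scaling (95% interval 3.33 to 110; adjusted p = 0.0156, edgeR). Its call was lost without any of 3 single libraries. SNORD23 had 1.21, 2.01 and 1.13 CPM in sorafenib polysomes, against 0.616, 1.06 and 0.423 CPM in vehicle polysomes (1.18 ± 0.41, adjusted p = 0.0236, edgeR), lost without any of 3 single libraries (0.85 to 1.13). The SNORD23 groups were close but did not overlap. SNORD3A had 0.453, 0.458 and 0.635 CPM in sorafenib polysomes, against 0.231, 0.177 and 0.423 CPM in vehicle polysomes, from 6, 8 and 9 counts against 3, 1 and 5 (0.78 ± 1.27, adjusted p = 0.63, edgeR).

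The interaction term asked whether the sorafenib effect differed between the fractions. It was positive, that is, higher in the polysome than in the light fraction, for 7 of 58 tested members, and negative for 0, where 12.8% of all genes were positive and 10.7% negative, so the share with a positive term was near that of all genes. The term uses all 12 libraries, so no members chosen on other libraries could be set beside it. The vehicle light libraries, through which alone 26 of the 58 passed the filter, enter the term with a positive sign. The choice of members therefore favours positive terms. These were 6 C/D members and 1 H/ACA member, and the median over tested members was 1.08, against 0.02 over all genes. In the fit with the looser filter 9 members were positive and 0 negative, where 12.7% of all genes were positive and 4.14% negative. SNORD86 (4.09 ± 0.62) and SNORD23 (3.96 ± 0.54) differed most among well-counted members, with adjusted p of 0.000181 and 8.83e-05 (edgeR). SNORD86 had 1.28, 1.15 and 0.988 CPM in sorafenib polysomes, against 0.847, 0.354 and 1.10 CPM in vehicle polysomes, overlapping groups, whereas in the light fraction it fell as given above. SNORA31 (2.67 ± 0.58), SNORD36A (2.44 ± 0.72) and SNORD49B (2.24 ± 0.60) were the others with at least 10 counts in each group, SNORD4A (3.40 ± 0.97) had 9 counts in the sorafenib light fraction, and SNORD102 (5.80 ± 1.73) had 2 counts in each of its lowest groups. Leaving out vehicle light library 3 gave 11 members with a positive term.

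Host genes were compared with the snoRNAs they hold. Of 44 host genes, 30 fell and 2 rose in the light fraction with sorafenib, where 17.7% of all genes fell and 11.7% rose. Between vehicle polysomes and the vehicle light fraction 40 were lower and 2 higher, where 17.8% of all genes were lower and 18.3% higher. Of the hosts, 15 of 19 ribosomal protein genes and 10 of 13 non-coding genes fell in the light fraction. Over the 54 tested members with a host, the median light-fraction change was -1.85 for the snoRNA and -1.19 for the host, and 37 members lay lower than their host and 17 higher. Both were called in 18 of these pairs, in 17 of them in the same direction. Between the fractions of vehicle cells the medians were -3.57 for the snoRNA and -2.51 for the host, 41 members lay lower than their host, and 45 of 47 pairs with both called shared their direction. Because 26 of the 58 tested members passed the filter only through the vehicle light libraries, the choice of members favours values below the host. Among tested members with 50 counts in the libraries outside each comparison, 13 of 19 lay lower than their host in the light fraction and 12 of 18 between the vehicle fractions. Several members share 1 host, so the pairs are not independent, and no test was made on them.

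NOP56, which encodes a core protein of C/D particles and holds SNORD86 and SNORD57, had 334, 215 and 267 CPM in the sorafenib light fraction, against 2138, 2756 and 3028 CPM in the vehicle light fraction (-3.27 ± 0.29, adjusted p = 3.7e-06, edgeR). SNHG29, the non-coding host of SNORD49B, had 1214, 872 and 1380 CPM in the sorafenib light fraction, against 3135, 2520 and 2776 CPM in the vehicle light fraction (-1.28 ± 0.28). TPT1, host of SNORA31, fell by 1.57 ± 0.35 and SNHG19, host of SNORD60, by 1.83 ± 0.37. In each of these the groups were far apart.

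Other members went a different way from the gene that spans them. RPL23A, host of SNORD4A and SNORD42A, had 5171, 9623 and 2889 CPM in the sorafenib light fraction, against 5558, 4139 and 6685 CPM in the vehicle light fraction (0.11 ± 0.38, adjusted p = 0.86, edgeR), overlapping groups. EIF4A1, host of SNORA67, stood at 0.34 ± 0.22, and LBHD1, which spans SNORA57, at 0.62 ± 0.25, neither called. CSKMT spans SNORA57 as well, and which of these genes is its host was not checked. SNHG3, host of SNORA73A and SNORA73B, had 139, 105 and 166 CPM in the sorafenib light fraction, against 1076, 732 and 458 CPM in the vehicle light fraction (-2.45 ± 0.32, adjusted p = 4.4e-05, edgeR), while neither of its snoRNAs fell. Whether reads of a host transcript were counted for its snoRNA, or the reverse, could not be tested, since no source used here gives the counting rule.

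**Figure D5:**
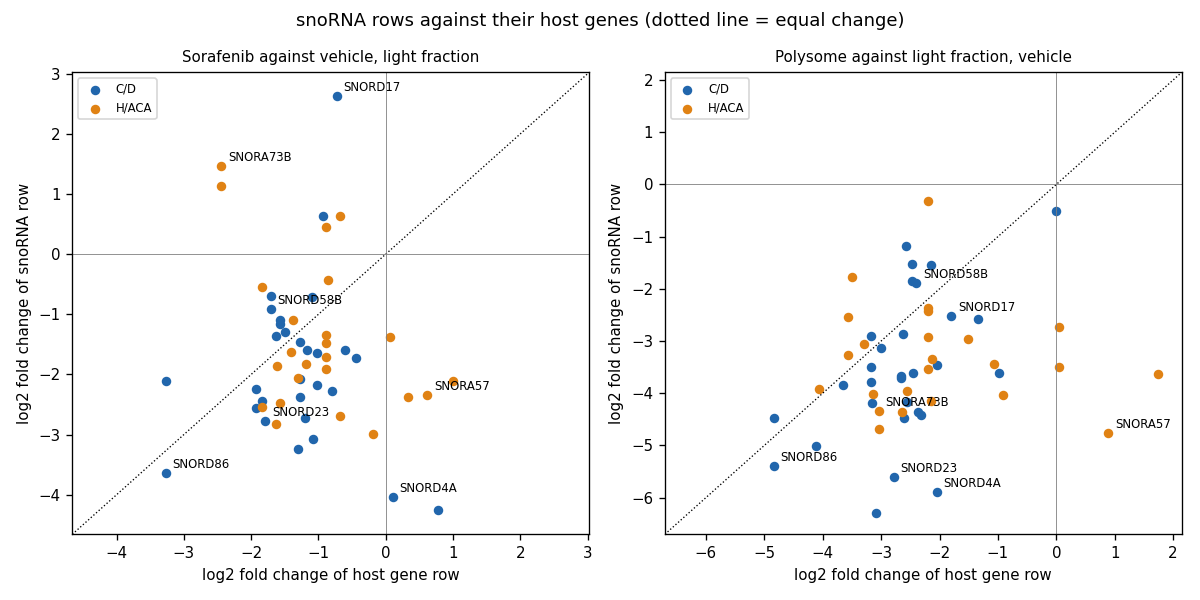
Log2 fold changes of tested members with a host and counts in each group (vertical axis) against those of their host gene (horizontal axis), for sorafenib over vehicle in the light fraction (left) and polysome over light fraction in vehicle cells (right), with the dotted line at equal change. More members lie below the line than above it, 37 against 17 on the left (SNORD42A, counted among the 37, is not drawn) and 41 against 13 on the right.

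Genes for the snoRNA machinery went in both directions in polysomes with sorafenib. Of 11 assembly factors 7 rose and 1 fell in the polysome fraction, led by NOLC1, a nucleolar chaperone of snoRNPs (2.13 ± 0.25). Of 11 processing and export genes 8 rose and 1 fell, among them EXOSC10, the nuclear exosome nuclease that trims snoRNA ends (2.09 ± 0.34), and XRN2, a 5′ exonuclease (1.56 ± 0.25), and in the light fraction 0 of the 11 was called. DKC1, the pseudouridine synthase dyskerin, rose by 0.81 ± 0.19 in polysomes, whereas its partners NHP2 (-1.70 ± 0.25), NOP10 (-1.34 ± 0.30) and GAR1 (-0.87 ± 0.24) fell. Among C/D core proteins RRP9, the U3-specific protein, rose by 0.82 ± 0.24, SNU13 changed by -1.02 ± 0.23, and the methyltransferase FBL was not called (0.49 ± 0.26). These counts stand against 20.9% of all genes rising and 28.8% falling in this comparison.

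Other small structural RNAs were also lower in polysomes. The list held spliceosomal, vault, Y, signal-recognition and Cajal-body RNAs with RN7SK, RMRP and RPPH1, and 19 of its entries were tested. Of these, 19 were lower in polysomes than in the light fraction in vehicle and 19 in sorafenib cells, with medians of -5.41 and -6.59, where 17.8% and 12.4% of all genes were lower. The table held 46 such entries, of which 25 to 34 were at 0 in each polysome library and 8 to 20 in each light library. An entry can pass the filter on low counts through the light libraries alone, which favours lower values in polysomes. In the light fraction the 46 entries summed to 11294, 16689 and 4827 CPM of the library total with sorafenib, against 5111, 607 and 412 with vehicle. The 2 shallow sorafenib libraries were highest, and sorafenib light library 3 lay below vehicle light library 1. Of the 19 tested, 1 rose (RN7SL1, 2.08 ± 0.77) and 2 fell (VTRNA1-2 and SCARNA17), where 11.7% of all genes rose and 17.7% fell. Their median was 1.36. None of the 117 entries of the imprinted tandem clusters SNORD113 to SNORD116 reached 50 counts or was tested.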

How the data were processed

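Raw read counts per gene and library were used as the authors deposited them, in 1 table of 57353 genes and 12 libraries, with 0 columns of other samples. Per the submitters' processing notes, reads were placed on GRCh38.p12. The aligner, counter, annotation and strand setting were not found in the labels or headers. Libraries totalled 511065 to 13336689 counts. The labels place 3 cultures in each treatment and pool dishes within a condition, and p-values measure the spread between these libraries.

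The members, lists and named genes were chosen with earlier results of these data known. Genes were filtered with filterByExpr (14955 kept), scaled by TMM and fitted with edgeR 4.0.16 (limma 3.58.1, R 4.3.3) by quasi-likelihood, with 4 group means and a common biological coefficient of variation of 0.245. Changes were called at a Benjamini-Hochberg adjusted p under 0.05 over all genes tested, two-sided. The script was tested on simulated data. The rule for named members took the 8 best counted of each class, the 3 largest called changes per direction and comparison whose groups did not overlap, SNORD3A and SNORD118, 23 in all, with the members beside the count limit, the hosts of named members and the core proteins. Another 5 members (SNORD17, SNORA73A, SNORD36A, SNORD99 and SNORD65) were named after their values were seen, as were SNORD38B, SNORA25, SNORA33 and the list genes outside the core proteins.

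Same-numbered libraries did not deviate together: correlations were -0.245, -0.0267 and 0.0102 in polysomes and -0.00758, -0.155 and -0.147 in the light fraction. The 2 fractions of a culture are paired by the labels, with correlations of 0.0751, 0.0527 and 0.0384 in sorafenib and 0.176, -0.0515 and 0.371 in vehicle cultures. Replicate pairs differed by more than counting error alone gives, with chi-square values of 8.82 to 46.1 per degree of freedom. Bounds used a floor of 3 counts over a group, and intervals are exact at 95%, covering counting error only. Alternatives were library totals, other TMM settings, DESeq2 1.42.0, other count filters, leaving out each library or both shallow ones, replicate blocks and fits of 2 groups. Sequences were read from RefSeq tables (GRCh38.p14), where the 69 symbols matched.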

Additional observations from a re-analysis of the deposited data

Results flagged for a closer look

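For 7 members the effect of sorafenib differed between the polysome and the light fraction by the interaction term of the edgeR fit, out of 58 tested, a share near the 12.8% of all genes with a positive term. The difference, polysome effect minus light effect on the log2 scale, was 4.09 for SNORD86, 3.96 for SNORD23, 3.40 for SNORD4A, 2.67 for SNORA31, 2.44 for SNORD36A, 2.24 for SNORD49B and 5.80 for SNORD102, a value that rests on 2 counts in each of its lowest groups. Adjusted p ranged from 8.83e-05 for SNORD23 to 0.02 for SNORD102. SNORD86, SNORD23, SNORA31 and SNORD36A kept the call in the 21 alternatives run. SNORD4A lost it without either of 2 single libraries (3.15 and 3.24), SNORD102 without any of 3 (5.01 to 5.24) and SNORD49B without both shallow sorafenib light libraries (1.83).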

How the results depend on the processing

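Leaving out each library in turn gave 1 to 3 rises and 3 to 9 falls among members in polysomes with sorafenib, 1 to 5 rises and 14 to 31 falls in the light fraction, 0 rises and 44 to 60 falls between the fractions of vehicle cells, 0 rises and 17 to 32 falls between those of sorafenib cells, and 6 to 11 positive and 0 to 1 negative interaction terms. C/D shares (CPM of the library total) ranged over 43.9 to 57.7 (sorafenib polysome), 55.6 to 60.6 (vehicle polysome), 199.9 to 310.2 (sorafenib light) and 286 to 384 (vehicle light). H/ACA shares ranged over 13.7 to 19.9, 17.7 to 29.8, 73.6 to 107 and 124 to 168 in the same order of groups, and the H/ACA to C/D ratio over 0.301 to 0.347, 0.312 to 0.529, 0.343 to 0.389 and 0.430 to 0.481.

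Polysome rises numbered 1 with the stricter filter, and falls 4 with the looser filter and 4 among members chosen on other libraries, an alternative chosen after seeing the data. Light-fraction rises numbered 2 with only its own libraries, 0 without both shallow libraries and 1 among members chosen on other libraries; falls numbered 14 with library totals, 17 with the stricter filter, 13 without both shallow libraries and 13 among members chosen on other libraries. Falls between vehicle fractions numbered 26 with the stricter filter and 21 among members chosen on other libraries. Falls between sorafenib fractions numbered 16 with TMM within each fraction, 19 with library totals and 18 with only its own libraries. The SNORD17 light-fraction change ranged over -0.18 (without sorafenib light library 2) to 3.27 leaving out single libraries, and was -0.66 without both shallow libraries. The cause of these differences was not tested, except that the stricter filter and the members chosen on other libraries leave fewer members to test.

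Without the most abundant member the C/D share was 36.5 CPM in sorafenib polysomes and 50.5 in vehicle polysomes, and the sorafenib polysome ratio was 0.426. Over all SNORD or SNORA entries the C/D share was 66.2 in vehicle polysomes, the H/ACA share 134 and the ratio 0.448 in the sorafenib light fraction, where the ratio was 0.423 without the shallow libraries. TMM-scaled C/D sums were 47.7 in vehicle polysomes and 515 in the vehicle light fraction, and the H/ACA sum there was 232.

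With the culture as a replicate block, 55 members were lower in vehicle polysomes, 28 were lower in sorafenib polysomes and 8 had a positive interaction term. With the replicate number as a block, 3 rose and 25 fell in the light fraction and 2 rose and 6 fell in polysomes. DESeq2 called 27 of the 30 light-fraction changes, without SNORD3C and SNORD3D among them. Of members chosen on other libraries, 13 lay lower than their host in the light fraction and 12 between vehicle fractions, from fewer pairs. Over the named calls, each recomputed under at most 22 alternatives, the call held in 1649 recomputed values, was lost in 160 and turned sign in 2. Depth limits the sorafenib light group most, and members with few counts there are given as ratios or bounds.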
